A study of Mus musculus with 8 samples.

Results

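The RASSF family, the Ras-association domain genes Rassf1 to Rassf10, was followed in cultured immature oligodendrocytes (iOLs) with and without Med23, a subunit of the Mediator complex that links transcription factors to RNA polymerase II. The members are 10 of the 24346 genes listed by symbol, and all 10 were in the table. The family was chosen by the FPKM of Rassf10, which was strongly lower without Med23, so the values of Rassf10 between genotypes are given as a description, with no test. Levels are in FPKM, the fragments of a gene scaled to its transcript length and to the mapped fragments of the library, which is a scale per length on which genes can be set side by side.

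RNA was taken from 8 cultures of mouse cells, 4 labelled wild type (Med23+/+) and 4 labelled Med23 knockout (Med23-/-). The knockout mice of the study carried floxed Med23 alleles and Cre from the Olig1 line (Olig1-Cre), which limits the deletion to cells in which Olig1 has been active. Control littermates of these mice were Med23 fl/fl without Cre and so shared the floxed alleles, and for the cultures the labels give only WT. Oligodendrocyte precursor cells (OPCs) were immunopanned on anti-CD140a from brains of the seventh postnatal day, after plates coated with the lectin BSL1 had taken out endothelial cells and microglia. The growth factors PDGF-AA (10 ng/mL) and NT-3 (1 ng/mL) expanded them, and both genotypes were then placed for 1 day in 15 nM T3, the active thyroid hormone, with 10 ng/mL CNTF. Nothing in the sources used here says that the cultures of a genotype came from separate animals. Xist, an RNA of female cells, read 182 FPKM in Med23+/+ replicate 1 and 209 in Med23-/- replicate 2. It read 0.384 FPKM or less in every other library. So the libraries of a genotype differed in sex and did not all share the same source of cells. The number of animals is unknown, and p-values measure only the spread between these samples, part of which may be technical. In bulk RNA, fewer cells of a type and less RNA per cell cannot be told apart.

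Proteins of the family carry a Ras-association (RA) domain, by which several of them bind small GTPases of the Ras and Rap type in their active form. Rassf1 to Rassf6 encode the classical members, in which the RA domain is followed by a C-terminal SARAH domain that pairs with the SARAH domain of the MST kinases Stk3 and Stk4 at the head of the Hippo pathway. Rassf7 to Rassf10 encode the N-terminal members, in which the RA domain lies near the N-terminus and the SARAH domain is missing. Hippo kinases restrain the coactivators Yap1 and Wwtr1 (TAZ), which act with TEAD factors on genes of growth and adhesion, and in the oligodendrocyte lineage this pathway is known for its part in the response to mechanical cues.

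Promoter sequence from RefSeq (GRCm38.p6) was matched for 6 members, Rassf1, Rassf2, Rassf4, Rassf5, Rassf6 and Rassf7. Rassf3, Rassf8, Rassf9 and Rassf10 had no entry. The 250 bases upstream of the start are shown for Rassf7, the 1 N-terminal gene with an entry, and for Rassf1 and Rassf2, the classical genes with the highest levels, because the study sets Med23 beside Sp1, a factor that binds GC boxes. Capitals mark each match to the GC box letters GGGCGG on either strand, the other strand reading CCGCCC, and no matches overlapped.
Rassf7, chr7:141215610-141215859, + strand: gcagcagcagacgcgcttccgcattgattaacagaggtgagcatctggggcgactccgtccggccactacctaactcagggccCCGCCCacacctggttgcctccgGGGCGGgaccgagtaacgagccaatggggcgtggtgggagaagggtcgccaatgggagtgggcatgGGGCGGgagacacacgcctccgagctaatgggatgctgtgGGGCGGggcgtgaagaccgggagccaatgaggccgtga
Rassf1, chr9:107551305-107551554, + strand: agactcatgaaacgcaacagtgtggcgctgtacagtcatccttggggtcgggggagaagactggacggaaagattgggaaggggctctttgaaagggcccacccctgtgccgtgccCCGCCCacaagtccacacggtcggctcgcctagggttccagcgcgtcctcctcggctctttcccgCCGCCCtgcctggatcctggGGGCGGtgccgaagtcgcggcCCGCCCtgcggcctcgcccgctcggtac
Rassf2, chr2:132030325-132030574, - strand: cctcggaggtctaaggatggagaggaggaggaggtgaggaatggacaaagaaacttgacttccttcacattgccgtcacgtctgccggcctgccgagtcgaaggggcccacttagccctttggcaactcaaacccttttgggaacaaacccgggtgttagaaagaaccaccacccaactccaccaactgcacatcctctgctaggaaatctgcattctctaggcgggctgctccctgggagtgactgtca
The windows of Rassf7 and of the upstream start of Rassf1 held 4 matches each, and that of Rassf2 held 0. Among 32851 promoters of the same length, 32.7% held at least 1 match and 4.09% held at least 4. GC content was 66% in the window of Rassf7, 67.2% in that of Rassf1 and 55.2% in that of Rassf2, against a promoter median of 52.4%. The shares are not matched for GC content. Rassf4 held 2 matches, Rassf5 and the internal start of Rassf1 held 1 each, and Rassf6 held 0. A match is a description of the letters in this window.

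Med23 itself, read over the whole gene and not over the deleted exons, was at 12.5 ± 0.225 FPKM (SD, n = 4) in Med23+/+ and 8.26 ± 0.247 in Med23-/-, with no overlap (log2 difference -0.55, limma adjusted p = 0.000353). All 8 oligodendrocyte lineage markers averaged 1 FPKM or more, and their sums ran from 1877 to 2158 FPKM in Med23+/+ and from 1578 to 2089 in Med23-/-. Among them, Sox10 and the myelin genes Cnp and Mbp were lower, and the precursor markers Pdgfra and Cspg4 were higher. Of the 8 microglia markers, 7 were under 1 FPKM in every library and the sum stayed between 1.06 and 2.37 FPKM. Astrocyte markers summed to 81.3 to 118 FPKM in Med23+/+ and 63.9 to 101 in Med23-/-, and of the 6, Gfap (13.6 to 3.12 FPKM) and Aqp4 (6.81 to 2.34) were lower and Slc1a2 was higher. Endothelial markers summed to 0.488 to 1.18 and 1.13 to 2.95 FPKM, and Kdr was the 1 of 5 that was tested, entering only through Med23-/- (0.505 to 1.65 FPKM, limma adjusted p = 0.0398). Fibroblast and mural markers summed to 1.55 to 11.5 and 3.68 to 18.1 FPKM, and the 3 tested had limma adjusted p-values of 0.258 to 0.441. The sum of the neuron markers was 28.1 to 43.3 FPKM in Med23+/+ and 55.7 to 126 in Med23-/-, and 5 of the 6 were higher (limma, adjusted p under 0.05). The part of these markers in the differences of Rassf3, Rassf8 and Rassf10 was not tested. The first principal component (42.4% of the variance) separated the genotypes, and the second (15.6%) separated replicates 1 and 2 from replicates 3 and 4 in both.

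Rassf10, an N-terminal member that is often silenced in tumours and has been linked to mitosis, was the second most abundant family gene in Med23+/+ and almost absent in Med23-/-. It lies on chr7:112953962-112957457 (mm10, + strand) and is annotated as a single exon with 1 coding transcript of 3496 nt that shares no exonic base with another gene. In Med23+/+ the 4 libraries read 16.6, 13.4, 18.2 and 12.3 FPKM, and in Med23-/- they read 0.547, 0.646, 0.755 and 0.206. Every Med23+/+ library stood far above every Med23-/- library, the lowest of the former being 16.3 times the highest of the latter. The means were 15.1 ± 2.75 FPKM and 0.538 ± 0.238 (SD, n = 4 each), so the Med23-/- level was 3.56% of that in Med23+/+, a ratio of 28.1. On the scale of log2(FPKM + 1) the difference was -3.39, and 11 of the 12328 genes tested had a lower one. Among the genes tested, the mean of Rassf10 stood at percentile 56.3 in Med23+/+ and at percentile 0.308 in Med23-/-. Rassf10 reached the minimum average of 1 FPKM only through Med23+/+, and genes under that minimum are left out. So the low percentile in Med23-/- is partly set by the filter and is not a place among all genes detected. The values of Rassf10 and the other members in each library are plotted in the dot plot of the family.

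**Figure D1:**
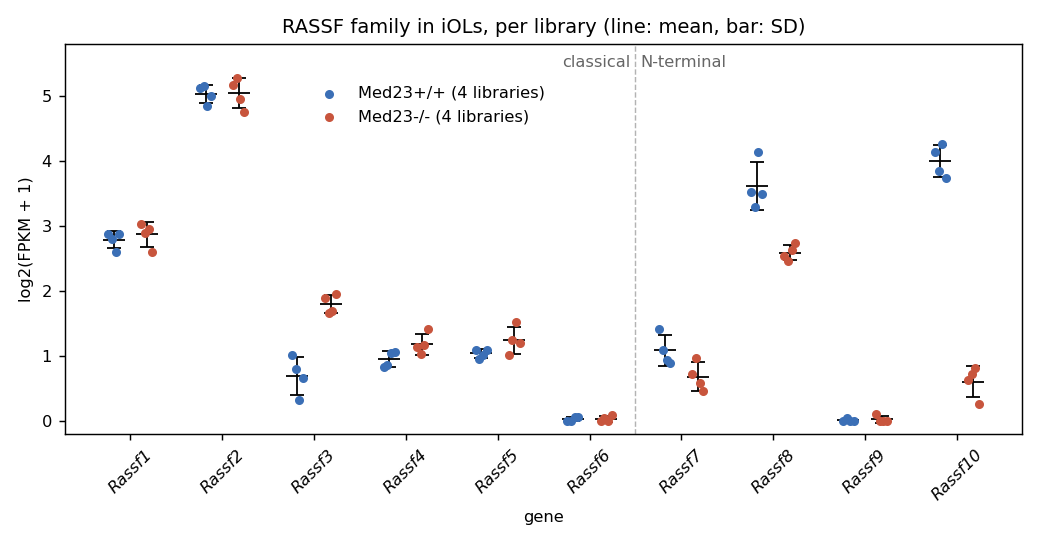
Level of each RASSF gene as log2(FPKM + 1), 1 point per library, with Med23+/+ in blue and Med23-/- in red, a line for the mean and a bar for the SD over 4 libraries. Rassf10 dropped by 3.39 between the means, Rassf8 and Rassf3 also separated the genotypes, and the points of the other members overlapped.

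Rassf8, the other abundant N-terminal gene, whose protein binds ASPP proteins at cell junctions, fell with Rassf10. Its libraries read 10.5, 8.85, 16.7 and 10.2 FPKM in Med23+/+ and 4.79, 4.51, 5.22 and 5.65 in Med23-/-. The genotypes did not overlap, and the Med23+/+ libraries were the more scattered, with replicate 3 above the others. The mean went from 11.6 ± 3.49 FPKM to 5.04 ± 0.499 (SD, n = 4 each), or to 43.6% of the Med23+/+ level. The log2 difference was -1.02 with an SE of 0.17 (95% interval -1.39 to -0.65, limma adjusted p = 0.00164), and without Med23+/+ replicate 3 it was -0.85 and still past the threshold. Rassf8 lies on chr6:145746748-145821079 (mm10, + strand) and shares no exonic base with another annotated gene.

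Rassf7, linked to mitosis and to JNK signalling, and Rassf9, a binding partner of the peptide-processing enzyme Pam, make up the rest of the N-terminal group. Rassf7 read 1.68, 1.13, 0.927 and 0.857 FPKM in Med23+/+ and 0.645, 0.959, 0.501 and 0.372 in Med23-/-. The genotypes overlapped in 1 Med23-/- library, replicate 2, which stood above the 2 lowest Med23+/+ libraries. Its means of 1.15 ± 0.374 and 0.619 ± 0.252 FPKM (SD, n = 4 each) gave an average under 1 FPKM over the 8 libraries, so it was not in the test, and with no filter the log2 difference was -0.41 (limma adjusted p = 0.0853). Rassf9 was above 0 in 1 library of each genotype, at 0.0347 FPKM in Med23+/+ and 0.0733 in Med23-/-, and was listed at 0 in the others.

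Of the classical members, Rassf3 separated the genotypes, with higher values in Med23-/-. It binds the p53 regulator Mdm2 and is placed among growth restraining proteins. Rassf3 read 1.03, 0.738, 0.250 and 0.584 FPKM in Med23+/+ and 2.72, 2.18, 2.25 and 2.87 in Med23-/-. Each Med23-/- library was above each Med23+/+ library. The means were 0.650 ± 0.323 and 2.50 ± 0.342 FPKM (SD, n = 4 each), a ratio of 3.85, and the log2 difference was 1.10. Rassf3 passed the minimum of 1 FPKM only through its Med23-/- libraries, so its call among the genes over that minimum (95% interval 0.74 to 1.47, limma adjusted p = 0.00100) is partly set by the filter. In the fit with no filter, which every gene above 0 in at least 1 library enters, the limma adjusted p was 0.00174 with an SE of 0.15. It lies on chr10:121410350-121476347 (mm10, - strand) and shares no exonic base with another annotated gene.

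Rassf2, which binds the MST kinases, was the most abundant member in both genotypes. It read 33.9, 34.5, 27.8 and 30.9 FPKM in Med23+/+ and 34.9, 37.9, 30.1 and 26.0 in Med23-/-, and the ranges lay over each other. The means were 31.8 ± 3.07 and 32.2 ± 5.25 FPKM (SD, n = 4 each), with a log2 difference of 0.01 (95% interval -0.26 to 0.28, limma adjusted p = 0.962). Rassf1, a tumour suppressor known for an isoform that stabilizes microtubules, read 6.36, 5.98, 5.04 and 6.38 FPKM in Med23+/+ and 7.14, 6.46, 6.79 and 5.08 in Med23-/-. Its log2 difference was 0.08 (95% interval -0.17 to 0.34, limma adjusted p = 0.634), and the genotypes overlapped. Of the exonic bases of Rassf1, 42.7% are shared with the antisense gene Gm9917, and since the strand setting of the counting is not given in the sources used here, reads of the pair cannot be told apart.

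The low classical members did not pass the test. Rassf4 read 0.778, 0.827, 1.07 and 1.09 FPKM in Med23+/+ and 1.20, 1.04, 1.25 and 1.66 in Med23-/-, with a log2 difference of 0.23 (95% interval -0.06 to 0.53, limma adjusted p = 0.220). Only replicate 2 of Med23-/- lay within the Med23+/+ range, and the gene reached the minimum of 1 FPKM only through Med23-/-. Rassf5, known as RAPL or NORE1, a partner of Rap1 and of Stk4 in the adhesion of lymphocytes, read 1.14, 0.949, 1.02 and 1.13 FPKM in Med23+/+ and 1.02, 1.37, 1.86 and 1.31 in Med23-/-. Its log2 difference was 0.20 (95% interval -0.10 to 0.50, limma adjusted p = 0.291), with Med23-/- replicate 1 inside the Med23+/+ range. It shares 78 exonic bases, 1.95% of its own, with Eif2d on the other strand. Rassf6, whose protein acts in apoptosis, was at or under 0.0675 FPKM in all 8 libraries and was listed at 0 in 4 of them.

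Apart from Rassf10, 6 members averaged 1 FPKM or more over the 8 libraries and were tested. Rassf8 was lower and Rassf3 higher by limma, while over all 12328 genes tested 14.1% were lower and 15.9% higher by the same rule. Nothing is read from these counts, since Rassf3 and Rassf4 entered only through Med23-/-. Rassf8 and Rassf3 also passed with a fold change above 2 on the scale of log2(FPKM + 1), a limit that 1.75% of all genes met as lower and 2.98% as higher. On that scale the differences were close to the limit: without Med23+/+ replicate 3 both missed it (-0.85 for Rassf8 and 0.98 for Rassf3). So did Rassf8 without Med23-/- replicate 2 (-0.98) and Rassf3 under quantile normalization (0.999). With a pseudocount of 0.1 in place of 1, the difference was 1.91 for Rassf3 and -1.14 for Rassf8, so the closeness of Rassf3 depends on the pseudocount. The libraries of Rassf8 were lower and those of Rassf3 higher without overlap, as were those of 15.3% and 16.3% of all genes, and Rassf10, whose fall chose the family, is left out of this reading. The intervals around the differences are drawn in the plot of differences by member.

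**Figure D2:**
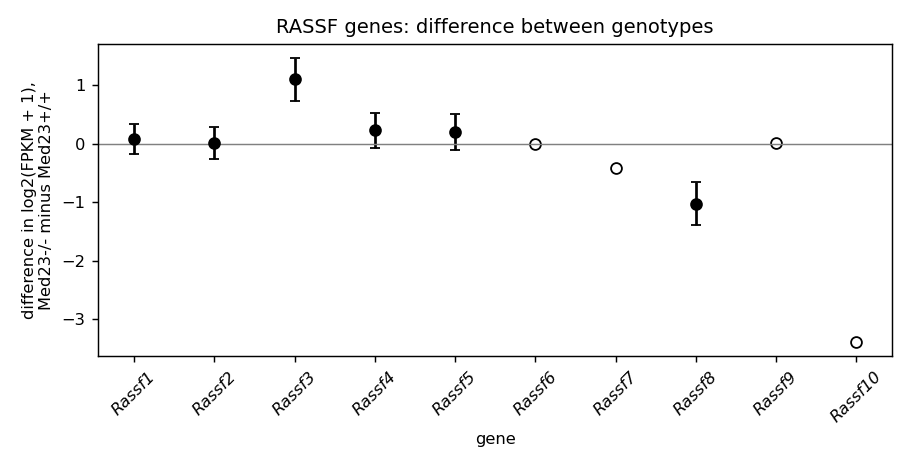
Difference in log2(FPKM + 1), Med23-/- minus Med23+/+, for each RASSF gene, with the 95% interval from limma as a bar for filled points and no interval for open points, which were not tested. The intervals of Rassf3 (0.74 to 1.47) and Rassf8 (-1.39 to -0.65) lie off 0, those of Rassf1, Rassf2, Rassf4 and Rassf5 include it, and Rassf10 sits lowest at -3.39.

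The order of the levels was set by 4 genes in Med23+/+. Rassf2 came first at 31.8 FPKM, followed by Rassf10 at 15.1 and Rassf8 at 11.6, whose libraries overlapped, and then by Rassf1 at 5.94. Rassf7, Rassf5, Rassf4 and Rassf3 lay between 1.15 and 0.650 FPKM, and each overlapped the next. In Med23-/- Rassf2 stayed first at 32.2 FPKM, Rassf1 at 6.37 and Rassf8 at 5.04 overlapped, and Rassf3 at 2.50 stood clear of both its neighbours. Rassf5 at 1.39 and Rassf4 at 1.29 overlapped, and Rassf7 at 0.619 and Rassf10 at 0.538 overlapped below them. Rassf6 and Rassf9 were last in both genotypes.

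Summed over the family, the level was 72.0, 66.4, 71.1 and 63.5 FPKM in Med23+/+, and in Med23-/- it was 53.0, 55.1, 48.7 and 43.2. The mean sum dropped by 18.3 FPKM, to which Rassf10 contributed -14.6, Rassf8 -6.53 and Rassf3 1.85. With Rassf10 left out, the sums overlapped, at 51.2 to 55.4 FPKM in Med23+/+ and 43.0 to 54.5 in Med23-/-. The sum of the classical genes overlapped too (35.3 to 43.2 against 37.0 to 49.0 FPKM), while the N-terminal genes summed to 23.4 to 35.8 FPKM in Med23+/+ and 6.06 to 6.47 in Med23-/-. The N-terminal share of the family was thus 35.2% to 50.4% in Med23+/+ and 11.1% to 14.4% in Med23-/-, and since Rassf10 chose the family, this split is a description. Within the N-terminal group Rassf10 held 50.8% to 57.7% and Rassf8 36.5% to 46.6% in Med23+/+, and in Med23-/- Rassf8 held 73.8% to 90.7% and Rassf10 3.30% to 11.7%. Rassf2 held 39.2% to 52.0% of the whole family in Med23+/+ and 60.2% to 68.8% in Med23-/-, at an FPKM that overlapped between genotypes. The stacked bars show these sums in each library.

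**Figure D3:**
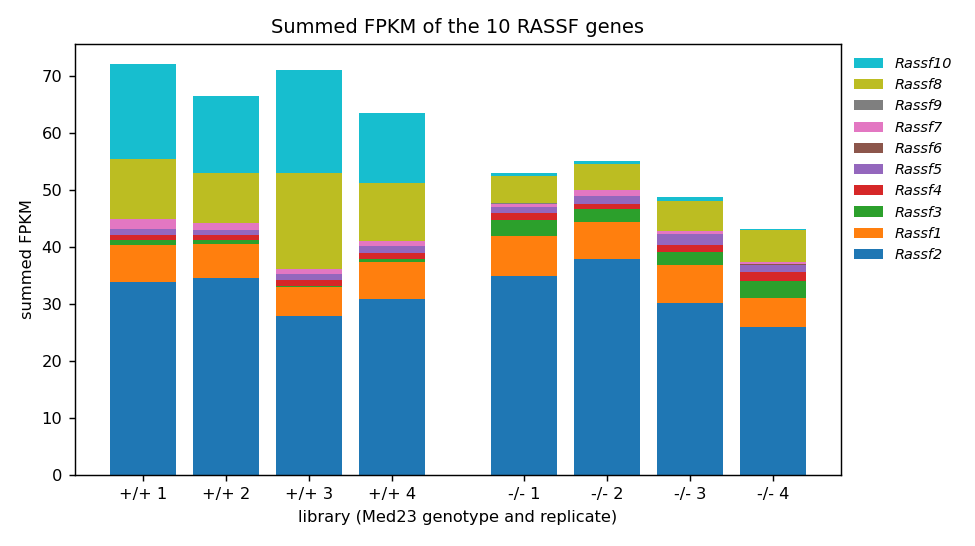
Summed FPKM of the 10 RASSF genes in each library, with 1 bar per library starting at 0 and 1 colour per gene. The bars of Med23+/+ reach 63.5 to 72.0 FPKM and those of Med23-/- 43.2 to 55.1, and the top segment, Rassf10, is nearly gone in Med23-/-.

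The pathway around the family was followed in 5 lists written from general knowledge. Over all genes tested, 14.1% were lower, 15.9% were higher, 8633 of 12328 did not pass and the median log2 difference was -0.01. The counts and medians of each list are set beside these. In the Hippo core list, all 23 genes were tested, 5 were lower, 6 higher and 12 did not pass, beside 14.1% and 15.9% of all genes, with a median of -0.08. The kinases that pair with the classical members through the SARAH domain did not pass: Stk3 was at 6.51 ± 0.703 FPKM in Med23+/+ and 5.94 ± 0.736 in Med23-/- (SD, n = 4 each; limma adjusted p = 0.455), and Stk4 at 13.5 ± 0.946 and 12.7 ± 0.602 (limma adjusted p = 0.462). Sav1, the scaffold of these kinases, had a log2 difference of -0.04 (limma adjusted p = 0.789). The lowest of the 5 that fell were Frmd6, an upstream FERM domain protein, at -0.83, and the downstream kinase Lats2 at -0.63 (limma adjusted p = 0.00136 and 0.00323), and with them fell Lats1, its cofactor Mob1a and the tumour suppressor Nf2. Lats2 read 17.5, 14.6, 19.5 and 16.5 FPKM in Med23+/+ and 10.4, 11.7, 11.8 and 8.67 in Med23-/-, without overlap. The highest were Ptpn14, a phosphatase that binds Yap1, at a log2 difference of 1.24, and the giant cadherin Fat4 at 1.22 (limma adjusted p = 0.000410 and 0.000197), and Wwc1, Map4k4, Amotl1 and the Fat4 ligand Dchs1 rose too. Fat4 read 2.36, 2.32, 1.41 and 1.70 FPKM in Med23+/+ and 6.03, 6.01, 4.93 and 6.31 in Med23-/-. Fat4 and Ptpn14 were the 2 of the list that also passed the 2-fold limit, and none of those that fell did.

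In the list of YAP, TAZ and TEAD genes, 5 of 8 were tested and 0 passed in limma in either direction, beside 14.1% and 15.9% of all genes. At an unadjusted p under 0.05 there were 0, beside 2497 lower and 2599 higher of all 12328 genes, and the median was 0.02. Nothing is read from these counts, since only 5 genes were tested and Yap1, Wwtr1 and Tead3 were near 1 FPKM. Yap1 was at 1.05 ± 0.475 and 1.29 ± 0.253 FPKM, Wwtr1 at 1.49 ± 0.609 and 1.09 ± 0.310, and Tead1 at 7.63 ± 0.336 and 7.84 ± 1.38 (Med23+/+ and Med23-/-, SD, n = 4 each), with limma adjusted p-values of 0.486, 0.381 and 0.895. Both coactivator genes were near the minimum of 1 FPKM in this culture. Of 20 YAP target genes, 13 were tested, 2 were lower and 6 higher, beside 14.1% and 15.9% of all genes, with a median of 0.35. Those that fell were Gadd45a, a stress-induced growth arrest gene, at a log2 difference of -0.98 (limma adjusted p = 0.000621), and Lats2. F3, which encodes tissue factor, read 11.5, 12.3, 11.2 and 15.2 FPKM in Med23+/+ and 24.8, 26.2, 29.1 and 30.7 in Med23-/-, a log2 difference of 1.09 (limma adjusted p = 0.000131). Ptpn14, Cyr61, Tgfb2 and Fjx1 rose as well, Fjx1 with a call that was lost without Med23+/+ replicate 2, Med23+/+ replicate 3 or Med23-/- replicate 4. The last of the 6 was Rbms3, at 0.648 ± 0.166 and 1.41 ± 0.475 FPKM, which passed the minimum of 1 FPKM only through Med23-/- and lost its call in 5 of 13 alternative fits, the omissions of Med23+/+ replicates 1, 3 and 4 among them. Lats2, Ptpn14 and Amotl2 belong to both this list and the Hippo core list, so the counts of the lists are not separate.

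Ras and Rap GTPases and their relatives made up the next list, and binding to RA domains was not examined for its members. Of 19 such genes, 18 were tested, 3 were lower, 1 higher and 14 did not pass, with a median of -0.09. Over all genes, 14.1% were lower, 15.9% higher and 8633 of 12328 did not pass. Rap2a read 79.2, 77.1, 91.5 and 81.2 FPKM in Med23+/+ and 53.5, 60.1, 53.5 and 40.5 in Med23-/- (log2 difference -0.67, limma adjusted p = 0.00266), and Nras and Rap1a had log2 differences of -0.37 and -0.33 (limma adjusted p = 0.00545 and 0.0418). The call of Rap1a was lost in 8 of 17 alternative fits (limma adjusted p from 0.0254 to 0.110), namely with no filter, no variance trend, quantile normalization and without Med23+/+ replicates 2, 3 or 4 or Med23-/- replicates 1 or 2, while those of Rap2a and Nras held in all 17. Rap2b was the 1 that rose, from 18.7 ± 1.46 to 30.3 ± 3.84 FPKM (SD, n = 4 each; log2 difference 0.66, limma adjusted p = 0.00107). Hras at -0.15 did not pass (limma adjusted p = 0.280). Without Med23-/- replicate 2 the count of GTPase genes that were higher was 2.

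Of 18 genes for proteins reported to bind or work with RASSF proteins, 17 were tested, 2 were lower and 5 higher, beside 14.1% and 15.9% of all genes, with a median of 0.12. Mdm2, partner of Rassf3, read 35.4, 34.7, 37.4 and 34.5 FPKM in Med23+/+ and 24.8, 27.7, 27.8 and 29.0 in Med23-/- (log2 difference -0.37, limma adjusted p = 0.00465). Trp53bp2, which encodes an ASPP protein, had a log2 difference of -0.32 (limma adjusted p = 0.0326), and its call was lost in 5 of 17 alternative fits (limma adjusted p from 0.0131 to 0.0853). The calcium channel gene Orai1 rose by a log2 difference of 1.03 and the mitotic kinase gene Aurkb by 1.02 (limma adjusted p = 0.000827 and 0.0141), as did Cdc20, Aurka and Pam, of which Aurka lost its call in 6 of 17 alternative fits and Cdc20 in 2. Aurkb read 17.6, 16.2, 7.06 and 15.3 FPKM in Med23+/+ and 30.2, 22.8, 24.5 and 36.0 in Med23-/-, with Med23+/+ replicate 3 far below the rest of its group. The count of partners that were higher was 3 without Med23+/+ replicate 3 and 3 without Med23-/- replicate 1, and the count lower was 1 without Med23+/+ replicate 3, Med23+/+ replicate 4, Med23-/- replicate 1 or Med23-/- replicate 3. The plot of the lists shows each gene.

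**Figure D4:**
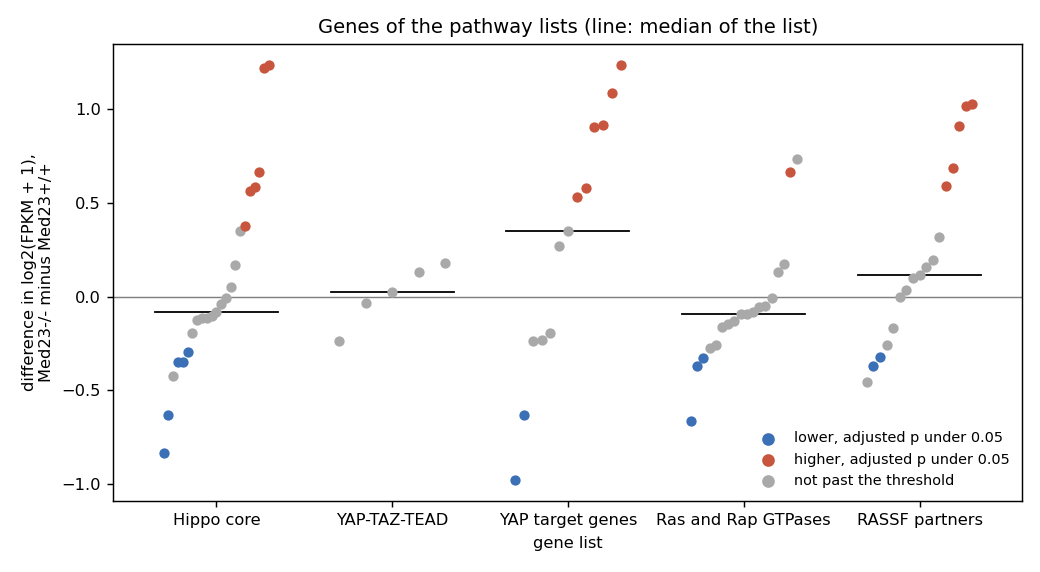
Difference in log2(FPKM + 1), Med23-/- minus Med23+/+, of each gene tested in the 5 lists, 1 point per gene, blue where lower and red where higher at a limma adjusted p under 0.05, with a line at each list's median. Medians run from -0.09 (Ras and Rap GTPases) to 0.35 (YAP target genes), and no point of the YAP, TAZ and TEAD list is coloured.

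Genes next to the members on the chromosome were read for their own differences. Tead1 lies 47155 nt from Rassf10 on the side of lower coordinates, and while Rassf10 went from 15.1 to 0.538 FPKM, Tead1 was at 7.63 and 7.84 FPKM and did not pass. The annotated gene on the other side, 4930543E12Rik, was under 1 FPKM. Bhlhe41, a circadian repressor gene next to Rassf8, rose from 1.37 to 2.05 FPKM (limma adjusted p = 0.0429) where Rassf8 fell, and Dyrk3, a kinase gene next to Rassf5, rose from 1.57 to 2.92 FPKM (limma adjusted p = 0.0386). Tusc2, Slc23a2, Tbk1, Zfp422 and Eif2d, further neighbours or overlapping genes tested, did not pass, and none of the neighbours named here was lower.

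The genes whose pattern over the 8 libraries was most like that of Rassf10 were sought among 9765 genes that averaged 5 FPKM or more in 1 of the genotypes, by Pearson's r of log2(FPKM + 1). The highest were Dbndd2 (r = 0.998), the carboxypeptidase gene Cpm (0.997), Parvb for the focal adhesion protein β-parvin (0.996), the sulfotransferase gene Ust (0.995) and Xpot for the tRNA exporter (0.995). Dbndd2 went from 22.9 ± 2.22 to 5.53 ± 0.760 FPKM, and Parvb from 29.3 ± 1.64 to 1.82 ± 0.319 (SD, n = 4 each). The most opposite were Pitpnc1 (-0.997), Aif1l (-0.997) and Tacc2 (-0.996), of which Tacc2, a gene of a microtubule-associated protein, went from 10.6 ± 1.34 to 50.3 ± 10.1 FPKM. In all, 343 genes reached an r of 0.95 or more and 290 an r of -0.95 or less. The 8 points share their libraries and the difference between genotypes. When each genotype was centred on its own mean, 0 of the 5 most similar genes stayed among the 5 highest, whose r ran from 0.946 to 0.954. After this centring r was 0.909 for Dbndd2, 0.843 for Ust, 0.780 for Cpm, 0.705 for Parvb and 0.689 for Xpot.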

How the data were processed

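RNA-seq was performed on 8 libraries, and per the labels and the study's methods, total RNA was extracted with Trizol, libraries were made with an NEB kit, and reads were checked with FastQC, trimmed with Cutadapt, aligned to mm10 with Tophat2 and counted with cuffdiff (-b -u). Tool versions, annotation, library normalization and strand setting are not given in the sources used here. The authors deposited FPKM values per library. The columns of fold changes, p-values and q-values that the authors deposited hold their own comparison and were not used. No counts were used, so depth is unknown, and its limit on low genes cannot be given as an interval. All 8 library columns were mapped to samples by name.

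Values were transformed to log2(FPKM + 1) (pseudocount 1) with no further scaling. Genes that averaged 1 FPKM or more over the 8 libraries (12328 of 24346) entered a comparison in limma 3.58.1 (R 4.3.3; lmFit, eBayes with a variance trend), with Benjamini-Hochberg adjustment over all of them. A gene passed at an adjusted p under 0.05, and the study's criterion of a fold change above 2 was an added limit. The members and lists were chosen with earlier results of these data known, and Rassf10 was not tested. Named genes were the members, Med23, of each list the 2 lowest and 2 highest among those that passed together with 10 fixed pathway genes, the chromosomal neighbours, and the 5 most similar and 3 most opposite to Rassf10. Other genes that passed in a list are named without values and were added after their values were seen. Some of the genes under this rule are not reported here. Coordinates come from GENCODE vM21 on mm10. On simulated data for Med23-/- against Med23+/+ with 12328 genes, 87 of 100 genes changed by 1 on the log2 scale and 99 of 100 changed by 2 were recovered, with 13 false calls. The changed genes were drawn only from those with a mean log2(FPKM + 1) above 2. So the recovery does not cover low genes such as Rassf3, Rassf4, Rassf5, Yap1 and Wwtr1. Noise was drawn independently for each gene and library, and 200 genes were changed, fewer than passed in the data. Variation shared between genes, such as the second principal component, was not simulated, so these rates may not hold for the data. Alternatives were a pseudocount of 0.1, no filter, a mean of at least 5 FPKM, median-ratio scaling, quantile normalization, no variance trend, a replicate block, replicates 1 and 2 against 3 and 4 as a covariate, each library left out, and, chosen after seeing the data, libraries above 10 FPKM of Xist as a covariate. Tables and figures were made with Python 3.11.15, pandas 2.3.3, scipy 1.17.1 and matplotlib 3.10.9.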

Additional observations from a re-analysis of the deposited data

Results flagged for a closer look

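Some single libraries stood apart from the other libraries of their genotype by the gap between the extreme library and its nearest neighbour, divided by the whole range. This was checked in 98 groups of 4 libraries, of which chance alone flags about 1 in 20. The flags listed here are about as many as that rate gives, and nothing is read from them. Rassf9 was above 0 only in Med23+/+ replicate 2, at 0.0347 FPKM, and in Med23-/- replicate 1, at 0.0733 FPKM. With every other library at 0, the gap of Rassf9 equals the range, so it is flagged in any case. Tead1, the neighbour of Rassf10, was highest in Med23-/- replicate 4, at 9.90 FPKM. Trp53bp2 was highest in Med23+/+ replicate 3, at 12.5 FPKM, and so was Slc23a2, the neighbour of Rassf2, at 22.4 FPKM. Eif2d, which overlaps Rassf5, was lowest in Med23+/+ replicate 4, at 9.76 FPKM.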

How the results depend on the processing

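Rassf8 stayed lower and Rassf3 higher in every fit that tested them. For Rassf8, limma adjusted p ran from 0.000735 to 0.00662 over 17 alternative fits. For Rassf3 it ran from 0.000684 to 0.00467 over 16. Rassf3 is not tested at a mean of at least 5 FPKM, where 0 members were higher. Apart from the fit with no filter (limma adjusted p = 0.00174), Rassf3 entered these fits only through Med23-/-. Rassf1 turned to -0.020 under quantile normalization, and leaving out single libraries moved Rassf2 between -0.071 and 0.10, both with no call. Rassf10 was at -4.66 with a pseudocount of 0.1, which shrinks differences at low levels less, and between -3.48 and -3.28 with single libraries left out.

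With the fold change above 2 on log2(FPKM + 1) as well, the Hippo core list held 0 lower and 2 higher, and the YAP targets 0 and 2. The GTPases held 0 and 0, the partners 0 and 2, and all genes 216 and 367. The pseudocount bears on these counts. By mean FPKM, the YAP targets Gadd45a (13.0 to 6.06), Cyr61 (1.69 to 3.93), Tgfb2 (1.00 to 2.79) and Rbms3 (0.648 to 1.41) also changed more than 2-fold (Med23+/+ to Med23-/-). Quantile normalization gave 4 lower YAP targets, and a mean of at least 5 FPKM left 3 higher YAP targets and 1281 higher genes. Replicates 1 and 2 against 3 and 4 as a covariate gave 2 higher GTPases, and no filter gave 1 lower partner. With single libraries left out, higher GTPases ran from 1 to 2, lower partners from 1 to 2, higher partners from 3 to 5, and all genes from 1225 to 1667 lower and 1556 to 1864 higher. Of the 5 genes most like Rassf10, 1 was kept by Spearman's rho and 0 after centring. The causes of these moves were not tested.

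Same-numbered libraries deviated together weakly or not at all (r = 0.130, -0.096, -0.026 and 0.159). These values alone cannot show whether the numbers pair the samples. On a principal component given above, the lower replicate numbers separated from the higher ones in both genotypes. With the replicate block, Rassf8 was at -1.02 (limma adjusted p = 0.00235) and Rassf3 at 1.10 (0.00234), and 1835 genes were lower and 2085 higher. Without counts, depth sets an unknown limit on Rassf6 and Rassf9.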
